A study of Mus musculus with 2 samples.

Results

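The subject is the widest stretches of mouse autosome over which no boundary was called, and the boundaries that bound them. Consecutive boundaries of the deposited list were paired along each autosome, and every pair whose starts lay 800 kb or more apart was kept. This gave 336 of the 7167 autosomal intervals and 638 of the 7186 autosomal boundaries, out of 7610 boundaries on all chromosomes of the list. The members were therefore selected on measured values, the positions of the boundary calls, and their lengths are given as a description only. Chromosome X held 19 further intervals of this length, which are not members.

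The boundaries came from in situ Hi-C, which cuts and religates DNA inside fixed nuclei and counts the joined fragments as contacts. The material was mature olfactory sensory neurons, FACS-sorted out of adult olfactory epithelium from mice of both sexes, genotype OMP-Cre with a conditional Ldb1 knockout, with no treatment and with the strain given as Not Specified. There were 2 biological replicates of 1000000 cells each, fixed in 1% formaldehyde and cut with DpnII, and both belong to the same group. Cre was driven by the promoter of Omp, a gene switched on in mature olfactory neurons, so the deletion is confined to a late stage of the lineage. Neither the number of animals per replicate nor the reporter used for sorting is given in the sources used here. No control list was analysed, so nothing here compares knockout with normal neurons, and a boundary list shows neither the cell type through its markers nor the loss of Ldb1. The list was called on the pooled contacts of both replicates, so no value below carries a replicate error and the depth behind each boundary is unknown. Intervals given with shares, medians and densities are exact 95% binomial, order-statistic and Poisson intervals. They cover counting error only, treat neighbouring regions as independent, which they are not, and no difference below was tested.

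A boundary is a position that few contacts cross, and it separates neighbourhoods within which sequences meet often. Many boundaries lie at active promoters or where the DNA-binding protein CTCF halts the ring-shaped cohesin complex as it extrudes a loop, with the CTCF motifs at the ends of a loop usually pointing towards each other. Regions poor in genes and tandem arrays of related genes, such as those of odorant and pheromone receptors, often form long stretches of inactive chromatin, and very long genes, many of them expressed in neurons, can fill a neighbourhood alone.

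CTCF motifs at the flanks show what such an end can look like, and they are printed here because their strand and distance are used further on. The core CTCF consensus was searched on either strand. Of the flanks of the 10 longest intervals and of the 12 intervals most fully covered by 1 gene, 5 had a match within 10 kb, none of them in soft-masked repeats. Each line gives the 40 bases around it from the RefSeq GRCm38.p6 sequence, 5′ to 3′ on the strand of the match, with the matching bases in capitals. In order, the windows lie at chr7:23711995-23712034 (minus strand), chr2:178407729-178407768 (plus), chr7:6940921-6940960 (plus), chr12:24462288-24462327 (plus) and chr8:66521494-66521533 (minus).
Right flank of the 3735 kb Vmn1r interval: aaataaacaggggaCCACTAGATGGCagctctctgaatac
Right flank of the 3540 kb Zfp interval: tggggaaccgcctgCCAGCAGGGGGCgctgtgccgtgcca
Left flank of the 3515 kb Vmn1r and Vmn2r interval: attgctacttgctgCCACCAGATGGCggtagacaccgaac
Right flank of the 3180 kb interval of chromosome 12: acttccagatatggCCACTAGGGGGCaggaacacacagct
Right flank of the 945 kb March1 interval: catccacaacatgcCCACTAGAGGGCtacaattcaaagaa
The motif pointed into the long interval at 3 of the 5 flanks, namely the right flank of the 3735 kb interval, the left flank of the 3515 kb interval and the right flank of the March1 interval. A match is a stretch of letters and not a binding measurement.

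The second of these windows lies in a promoter. The window from 250 bases before to 50 bases after the start of Sycp2, which encodes a protein of the meiotic synaptonemal complex, holds it on the opposite strand (chr2:178407609-178407908, minus strand, RefSeq GRCm38.p6, match in capitals).
Sycp2 promoter: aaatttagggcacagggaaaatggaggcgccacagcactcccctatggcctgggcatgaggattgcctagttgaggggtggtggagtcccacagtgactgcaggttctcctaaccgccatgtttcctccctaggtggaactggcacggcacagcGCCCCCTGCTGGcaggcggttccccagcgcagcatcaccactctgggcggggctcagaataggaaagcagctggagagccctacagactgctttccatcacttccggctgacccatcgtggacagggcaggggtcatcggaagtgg
Of the 40 RefSeq promoter windows that overlapped a flank bin, from 36 genes, it alone held the consensus. Among all autosomal promoter windows 0.573% held it (180 of 31396).

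The intervals covered 15.1% of the autosomal sequence but held 1442 of the 20807 autosomal protein-coding gene starts, which is 6.93%. A start site is the annotated 5′ end of the gene. The median interval was 985 kb long (95% interval 955 to 1015 kb) and held 1 start site, or 0.980 per Mb (0.866 to 1.06). The other autosomal intervals had a median length of 255 kb and 6.45 start sites per Mb (6.25 to 6.90). Intervals of 600 to under 800 kb, just below the limit, had 1.46 per Mb (1.38 to 1.53). Their median interval also held 1 start site, so these medians per Mb follow interval length. Pooled over all sequence, the density was 3.87 per Mb (3.67 to 4.07) in long intervals and 3.48 (3.27 to 3.71) in those of 600 to under 800 kb. It was 9.28 (9.15 to 9.42) in all autosomal intervals under 800 kb. No start site fell in 122 of the 336 intervals (36.3%, 31.2 to 41.7%), against 23.7% of the other autosomal intervals, which are shorter and so have less room for a gene, and 38.7% of those of 600 to 800 kb. A further 105 held exactly 1. Every long interval held at least 1 annotated gene of some type, since noncoding RNAs and pseudogenes were counted there too. The median density of long noncoding RNA starts was 1.13 per Mb, against 3.17 in the other autosomal intervals.

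The 800 kb limit falls in a continuous range. The 6 intervals of 795 kb had flanks of strength 0.214 to 2.65 and 22 start sites in all. The 9 intervals of 800 kb had flanks of 0.225 to 2.28 and 70 start sites.

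Sequence composition divided the intervals into 4 kinds, by limits chosen after the values were seen. In 46 intervals under 80% of sampled 50-base words occurred once in the autosomes and chromosome X, and these are called repeat-rich. Of the rest, 1 protein-coding gene covered over 50% of the interval in 45, 108 held no start site, and 137 remained. The repeat-rich intervals held 884 of the 1442 start sites (61.3%, 58.7 to 63.8%), at a pooled density of 11.7 per Mb (10.9 to 12.5). The other 290 held 1.88 per Mb (1.73 to 2.04), and 120 of them (41.4%) had none. All of the 10 longest intervals were repeat-rich, as were 15 of the 20 longest and 25 of the 50 longest. Among intervals of 800 to under 1000 kb the share was 9.04% (16 of 177), and among those of 1000 to 1485 kb it was 7.81% (10 of 128). Among those of 1510 kb or more it was 64.5% (20 of 31). In the shorter intervals of 600 to under 800 kb it was 8.09% (33 of 408). The repeat-rich share was thus higher only in the longest of these classes, and start sites were denser in the repeat-rich intervals. The part of repeated sequence in the missing boundaries was not tested.

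**Figure D1:**
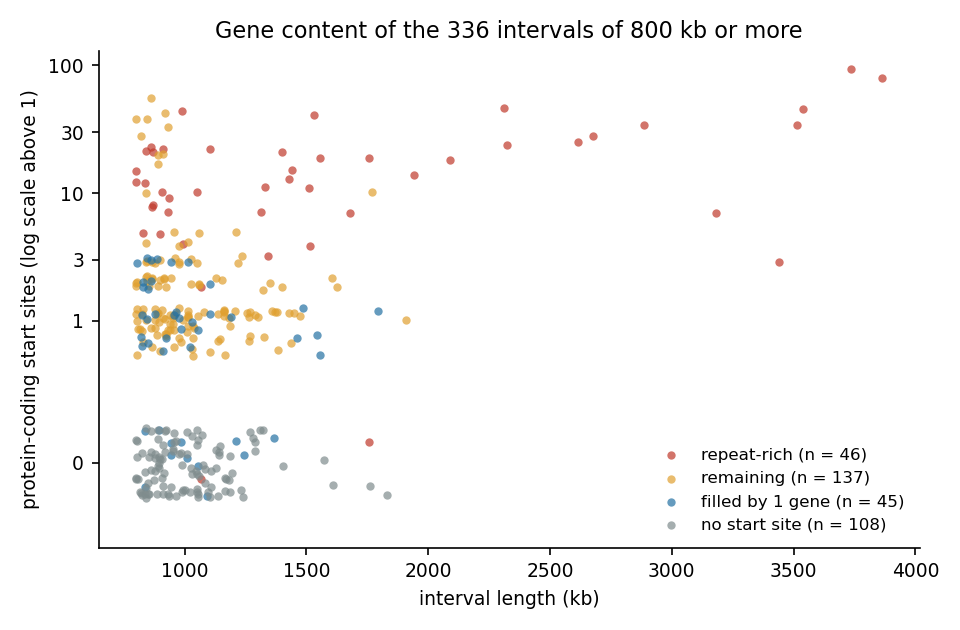
Length of each of the 336 intervals (horizontal axis, kb) against its number of protein-coding start sites (vertical axis, logarithmic above 1, points moved by up to 0.25 to separate them), coloured by kind. The 10 longest intervals are all repeat-rich, and most of the others lie at 0 or 1 start site.

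The 10 longest intervals differed in the genes they held. The longest of all spanned 3865 kb (chr14:41050001-44910000) between flanks of strength 0.737 and 1.21, and 62 of its 80 start sites belonged to genes with provisional Gm names. In this interval 28.9% of the sampled words were unique and 6.48% of the bases were assembly gaps. The next, 3735 kb on chromosome 7 (chr7:19985001-23715000), held 94 start sites, the most of any interval. Of these, 56 were vomeronasal receptor genes, the pheromone receptors of the vomeronasal organ, and 35 had Gm names. The first gene was Nlrp9b, of a family of intracellular innate immune sensors. The left flank of this interval was strong (0.585) and its right flank, the one shown above with a motif, was among the weakest of the list (0.210).

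An interval of 3540 kb on chromosome 2 (chr2:174870001-178405000) held 46 start sites. Of these, 34 belonged to genes with provisional Gm names and 10 to Zfp genes, which encode zinc finger DNA-binding proteins. Assembly gaps made up 12.7% of it, its flanks had strengths of 0.403 and 1.13, and its longest gene was Phactr3, a regulator of protein phosphatase. The 3515 kb interval of chromosome 7 (chr7:6950001-10460000; flanks 0.717 and 0.435) held 34 start sites, of which 26 were vomeronasal receptors, and its longest gene was Gm45844. A neighbour of 1555 kb with 9 more vomeronasal receptors followed across the shared flank of 0.435.

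On chromosome 12, 2 long intervals met at a weak shared flank. They spanned 3440 kb (chr12:17835001-21270000) and 3180 kb (chr12:21275001-24450000), with strong outer flanks of 1.98 and 1.92 and a shared flank of 0.342. They held 3 and 7 start sites, far fewer than the other intervals of this size, and their longest genes were Asap2, which acts on small GTPases, and 9030624G23Rik. No assembly gap lay in either, and 39.9% and 25.3% of their sampled words were unique.

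The other 4 of the 10 longest held 24 to 34 start sites each. A 2885 kb interval of chromosome 4 (chr4:145195001-148075000; flanks 0.368 and 0.864) held 18 Zfp genes among 34 start sites, with 14.996% gaps and Zfp984 as its longest gene. A 2675 kb interval of chromosome 5 (chr5:93305001-95975000; flanks 0.926 and 0.359) held 28, of which 21 were Gm-named; Gm16427 was the longest and the chemokine gene Cxcl13 the last. The 2615 kb interval of chromosome 7 (chr7:31240001-33850000; flanks 0.864 and 0.201) held 25 start sites, and all were secretoglobins, the family of the salivary androgen-binding proteins, with Scgb2b2 the longest. The 2325 kb interval of chromosome 4 (chr4:59945001-62265000; flanks 2.03 and 0.455) held 24, of which 22 were major urinary protein genes (Mup), carriers of volatile pheromones in urine, with Mup6 the longest and 17.2% gaps.

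Some shorter repeat-rich intervals held other families. An interval of 2310 kb on chromosome 8 held 22 defensin genes (Defa), antimicrobial peptides of the gut, among 46 start sites. The 905 kb interval chr19:38990001-39890000 held 10 Cyp genes, including the cytochrome P450 genes Cyp2c38 and Cyp2c69, and its left flank had a strength of 2.29. The 865 kb interval chr6:129985001-130845000 held 8 Klra genes, receptors of natural killer cells. Of the 46 repeat-rich intervals, 12 lay on chromosome 7. These families were picked after their values were seen.

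Antigen receptor loci lay in long intervals too. The 1755 kb interval chr6:68625001-70375000 had no protein-coding start site but held 63 immunoglobulin gene segments, which are annotated apart from protein-coding genes. Both of its flanks were weak (0.205 and 0.281). The 1680 kb interval chr14:52355001-54030000 held 113 T cell receptor segments and 7 olfactory receptor genes, Olfr1513 to Olfr1507, between flanks of 1.73 and 0.399. The latter interval also held H, an enhancer of olfactory receptor genes, and none of the other 10 autosomal olfactory receptor enhancers annotated in RefSeq lay in a long interval. Long intervals cover 15.1% of the autosomal sequence, and so few enhancers cannot show a difference from that share.

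Olfactory receptor genes were the largest family in number. Of 1128 autosomal members 271 (24.0%, 21.6 to 26.6%) started in a long interval, spread over 9 intervals of 800 to 1680 kb, and 35 of the 271 were in repeat-rich ones. The interval with the most held 48 of them among 56 start sites (chr7:103275001-104130000, flanks 0.802 and 0.402, from Olfr596 to Ubqln5) and continued across a weak flank into one with 28 more. The unique share of these neighbours was 80.1% and 78.2%, so they fell on opposite sides of the repeat limit although they hold the same family. On chromosome 2, 3 intervals held 41, 37 and 25 olfactory receptor genes. Of the 18 flanks counted by interval in these 9 intervals, 5 were strong, and the intervals from Olfr643 to Olfr681, from Olfr1054 to Olfr1115, from Olfr1196 to Olfr1240 and from Olfr881 to Olfr922 had weak flanks on both sides.

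Receptors of synaptic transmission had shares above the 6.93% of all autosomal protein-coding genes. For GABA receptors, the channels of inhibitory transmission, 7 of 16 members (43.8%, 19.8 to 70.1%) started in 3 long intervals, so several shared an interval. For glutamate receptors, the channels and receptors of excitatory transmission, 7 of 25 members (28.0%, 12.1 to 49.4%) started in 7 different long intervals, among them Grin2a (1165 kb), Grik2 (1030 kb) and Gria4 (1015 kb).

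Adhesion molecules of axons and synapses were also found there. Of 13 contactins and contactin-associated proteins 5 (38.5%, 13.9 to 68.4%) started in a long interval, with Cntnap2 (1555 kb), Cntn6 (1265 kb), Cntn3 (1205 kb) and Cntnap5a (1020 kb) in the longest. Counts were 4 of 33 for cadherins and non-clustered protocadherins (Cdh9, Cdh11, Pcdh7 and Cdh6), 3 of 25 for leucine-rich repeat synapse proteins (Flrt3, Slitrk1 and Slitrk5) and 2 of 12 for teneurins, neurexins, neuroligins and latrophilins (Adgrl3 and Tenm2). None of these 4 families had a member in a repeat-rich interval. The interval for contactins and contactin-associated proteins lay above the background of 6.93%. Those for the cadherins (up to 28.2%), the leucine-rich repeat proteins (2.55 to 31.2%) and the last group (2.09 to 48.4%) start below it and include it, so at these family sizes no difference from the background was detectable.

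Among the other chemosensory receptors and the Zfp genes, most of the members that started in a long interval did so in a repeat-rich one. Vomeronasal type 1 receptors had 78 of 208 members (37.5%) in 5 long intervals, and 68 of the 78 were in repeat-rich ones, for example Vmn1r100, Vmn1r101, Vmn1r103 and Vmn1r104 in the 3735 kb interval. For type 2 receptors the count was 36 of 119 (30.3%), 26 of them in repeat-rich ones, with Vmn2r29 to Vmn2r32 in the 3515 kb interval. Bitter taste receptors had 18 of 35 members in 1 repeat-rich interval of 840 kb, including Tas2r102, Tas2r103, Tas2r109 and Tas2r110. Zfp genes had 61 of 385 members (15.8%) in 15 intervals, 57 of them in repeat-rich ones, with Zfp931, Zfp965, Zfp966 and Zfp967 in the 3540 kb interval of chromosome 2.

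Several other lists had few or no members in the long intervals, to be read against the background of 6.93%. Cytosolic ribosomal proteins had 2 of 79 members there (Rpl10l and Rps9), mitochondrial ribosomal proteins 2 of 78 (Mrpl18 and Mrps30), the respiratory chain 1 of 88 (Ndufa3) and the solute carriers 5 of 358 (1.40%, 0.455 to 3.23%; Slc31a2, Slc5a9, Slc16a14 and Slc16a7 in the longest). Potassium channels had 2 of 92 (Kcna4 and Kcnh7). None of 38 proteasome subunits, 79 histones, 39 Hox genes, 53 keratins, 57 clustered protocadherins or 15 trace amine receptors started in a long interval. The binomial intervals ended below the background for the solute carriers, the respiratory chain (at 6.17%), the histones (4.56%), the clustered protocadherins (6.27%) and the keratins (6.72%). They count each gene as a separate draw, although neighbouring genes share an interval. For families that lie in clusters, such as the histones, clustered protocadherins and keratins, they are therefore too narrow to show a difference from the background. For the cytosolic and mitochondrial ribosomal proteins, potassium channels, proteasome subunits, Hox genes and trace amine receptors they include it, with upper ends from 7.63 to 21.8%.

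Regulators of development and guidance lay near the background. Developmental transcription factors had 7 of 141 members (4.96%, 2.02 to 9.96%) in long intervals, among them Bcl11a (1320 kb), Foxc1 (1060 kb) and Pou3f3 (1015 kb). Axon guidance genes had 4 of 66 (6.06%), namely Epha4 (1910 kb), Epha7 (1160 kb), Sema3c (865 kb) and Unc5d (820 kb). Ldb1 itself lay in an interval of 315 kb. Lhx2 and Ebf1, the transcription factors that work with it at olfactory receptor enhancers, lay in intervals of 510 and 415 kb, and Omp lay in one of 220 kb. None of the 15 autosomal marker genes of mature olfactory neurons, of 8 of immature neurons, of 8 of progenitors, of 5 of horizontal basal cells or of 9 of sustentacular and gland cells started in a long interval. These lists are short: counts of 0 allow shares of up to 21.8 to 52.2%, which include the background of 6.93%. Of 8 immune and vascular markers the haemoglobin gene Hbb-bs did, and it lies among olfactory receptor genes on chromosome 7.

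**Figure D2:**
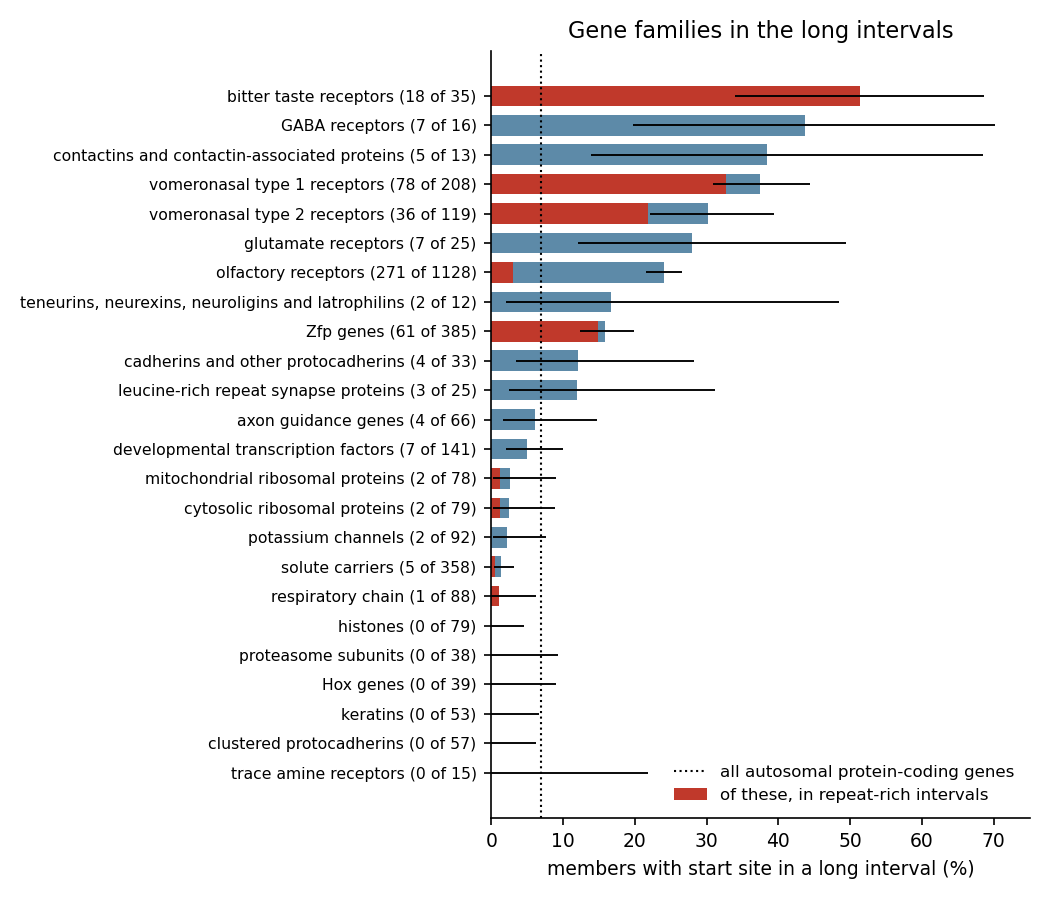
Share of each family's autosomal members whose start site lies in a long interval (horizontal axis, %), with exact 95% binomial intervals as lines and the part in repeat-rich intervals in red. The dotted line is the 6.93% of all autosomal protein-coding genes, and the shares run from 0 of 15 trace amine receptors to 18 of 35 bitter taste receptors.

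A further 45 long intervals lay mostly inside 1 gene body. They made up 13.4% of the long intervals (9.94 to 17.5%), against 27.6% of the other autosomal intervals and 20.1% of those of 600 to 800 kb. A longer interval needs a longer gene to cover most of it, so these shares depend on interval length. The comparison therefore cannot show whether long intervals are less often filled by 1 gene than their length alone would give. The 45 intervals involved 43 genes, of which 39 were 500 kb or longer, out of 218 autosomal protein-coding genes of that length. The start of the gene lay inside the interval in 30 of the 45. Their median share of unique words was 91.9%, against 89.1% over all long intervals and 93.8% in the other autosomal intervals.

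In the most fully covered intervals the gene reached across all or nearly all of the sequence. Macrod2, which encodes an enzyme that removes ADP-ribose from proteins, covered 100% of a 1795 kb interval (chr2:140480001-142270000; flanks 0.668 and 0.354), and the 1 start site there was that of Flrt3, which is nested in it. Fhit, a gene at a common fragile site, covered all of a 1055 kb interval (flanks 0.251 and 0.433), and Magi2, a synaptic scaffold, all of a 945 kb one (1.27 and 0.210). Cntnap2, which organises potassium channels along axons, covered 99.7% of 1555 kb (0.866 and 0.316). Npas3, a neuronal transcription factor, covered 98.0% of 845 kb (0.272 and 0.676).

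Flanks on both sides were strong for Astn2, a gene of neuronal migration, which covered 94.0% of an 850 kb interval (1.39 and 1.53). Lrp1b, a large lipoprotein receptor, covered 93.3% of 835 kb, and both flanks were close to the lowest strength of the list (0.233 and 0.240). Also among the 12 most fully covered were the intervals of March1, a ubiquitin ligase (90.8% of 945 kb), Naaladl2 (90.7% of 985 kb), Cntnap5a (88.9% of 1020 kb) and Sntg1, a neuronal syntrophin (82.4% of 895 kb). Intervals of Rbfox1, a neuronal splicing factor, and of Opcml, a neuronal adhesion molecule, came in pairs: each gene covered over 50% of 2 consecutive long intervals, with a shared flank of 0.377 in Rbfox1 and 0.763 in Opcml.

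The 108 unique-sequence intervals without any start site were mostly wide gene deserts. The longest spanned 1830 kb (chr3:146985001-148810000; flanks 1.52 and 0.669), and no protein-coding gene body reached into it. The nearest starts were those of Ttll7, 133 kb from one end, and of Adgrl2, 181 kb from the other. The next, of 1760 kb, had Pot1a on one side, and the body of Grm8, a metabotropic glutamate receptor, covered 20.2% of it. A 1320 kb interval on chromosome 14 (flanks 0.458 and 0.299) lay between Olfm4 and Pcdh17, whose starts are 4459 kb apart. The deserts had a median GC content of 37.5% (37.3 to 37.8%) and 42.2% soft-masked sequence (39.8 to 43.1%), against 42.9% and 29.9% in the other autosomal intervals. As a check of assay chemistry, the density of DpnII sites was 2.51 per kb in the deserts and 2.45 per kb in the other autosomal intervals.

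Most of the 137 remaining intervals held a lone gene in a desert. In 83 of them (60.6%) there was exactly 1 start site. Epha4, a receptor of ephrin guidance cues, was alone in the longest, of 1910 kb (chr1:75615001-77520000; flanks 1.88 and 0.679), and its body covered 7.76% of it. This interval also held 4 VISTA elements, enhancers tested in transgenic embryos, of the 34 found in all long intervals (5.51% of 617 on autosomes). Xylt1, an enzyme of proteoglycan synthesis, was alone in 1475 kb between strong flanks (1.43 and 2.81). Rorb, a nuclear receptor of cortex and retina, was alone in 1450 kb (0.958 and 0.369). Slitrk1 and Slitrk5, synaptic adhesion proteins, were alone in 1380 kb (0.243 and 1.89) and 1270 kb (0.260 and 0.235). At the other end, 11 of the 137 held 10 or more start sites, 7 of them olfactory receptor clusters. The others were 17 prolactin-family genes on chromosome 13, 16 vomeronasal receptors among 20 starts on chromosome 17, 9 Skint genes among 10 starts on chromosome 4, and 10 mixed genes from Rubcnl to Slc25a30 on chromosome 14. These examples were chosen after their values were seen.

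The intervals were unevenly spread over the autosomes. Chromosome 14 had 28, which took up 25.6% of its sequence, and chromosome 4 had 31, with 22.7%. On chromosome 7, where 12 of 23 were repeat-rich, they took up 21.2%. Chromosome 11 had 9, with 7.74%, and none of these was repeat-rich, filled by 1 gene or without a start site. Long intervals followed each other directly in 33 places, which together hold 67 of the 336, and the longest such run was 3 intervals on chromosome 10 (chr10:123875001-126570000) with 2 start sites.

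**Figure D3:**
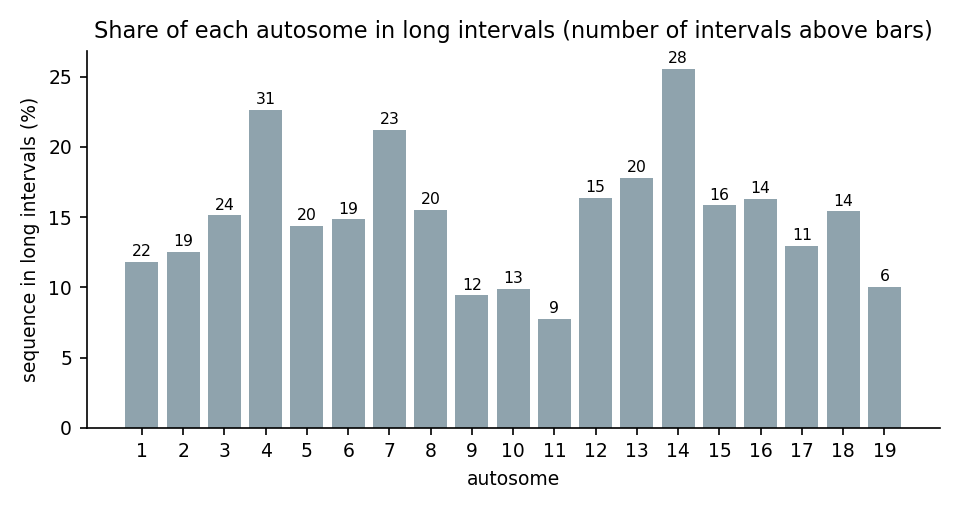
Share of the sequence of each autosome that lies in intervals of 800 kb or more (bars, %), with the number of such intervals above each bar. Chromosome 14 has the highest share (25.6%) and chromosome 11 the lowest (7.74%).

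Strength is the authors' score for each boundary and comes from the same insulation profile that placed the calls, so the values for flanks are a description and nothing is read from their difference from other boundaries. The 638 flanks had a median strength of 0.421 (0.393 to 0.459), from 0.201 to 3.01, and the other 6548 autosomal boundaries had a median of 0.567 (0.554 to 0.583). In the class of strong boundaries, those with a score of 0.5 or more, were 273 of the 638 flanks (42.8%), beside 54.3% of all autosomal boundaries. Scores of 1.5 or more were held by 70 flanks (11.0%, 8.65 to 13.7%) and by 8.66% of the other boundaries. Left and right flanks had medians of 0.402 and 0.411. Both flanks were strong in 51 of the 336 intervals, 1 was strong in 177, and both were weak in 108. The 34 boundaries shared by 2 long intervals had a median of 0.337, and 6 were strong.

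Set out by kind of interval, the lowest median was that of the deserts, 0.332 (0.302 to 0.371) over 209 boundaries, of which 60 were strong. Of the 108 deserts 53 (49.1%) were weak on both sides, beside 20.8% of all autosomal intervals. Flanks of intervals filled by 1 gene had a median of 0.398 (0.334 to 0.564, n = 88) and flanks of the remaining intervals 0.491 (0.411 to 0.579, n = 269). Flanks of repeat-rich intervals had a median of 0.634 (0.446 to 0.800, n = 89), and 48 of them were strong. In 32 of the 46 repeat-rich intervals exactly 1 flank was strong.

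**Figure D4:**
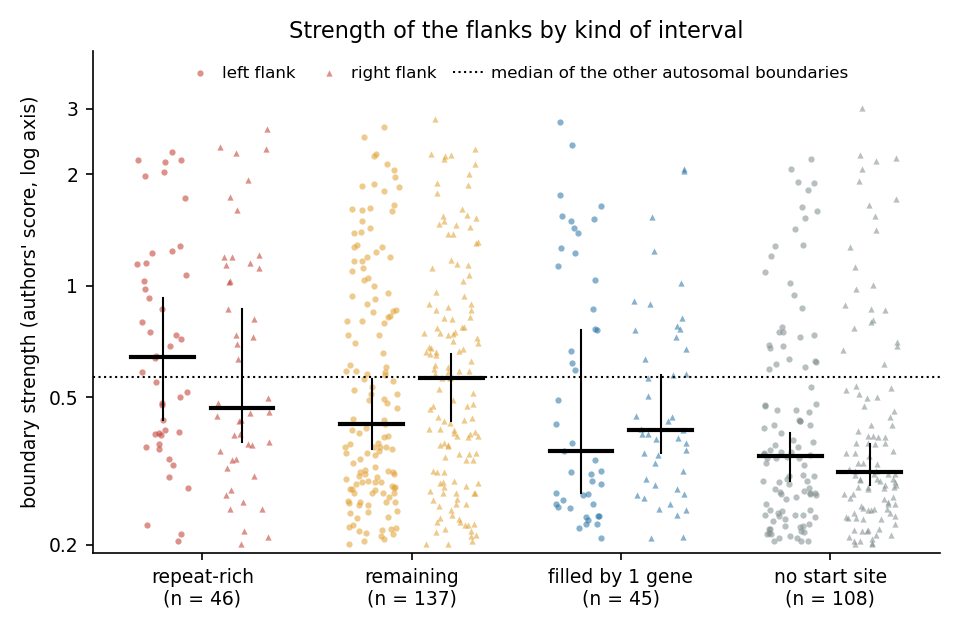
Boundary strength (authors' score, logarithmic axis) of the left and right flank of each long interval, by kind of interval, with the median as a horizontal bar and its 95% order-statistic interval as a vertical line. Flanks shared by neighbouring intervals appear once for each, and the dotted line is the median of the other autosomal boundaries, 0.567; the deserts have the lowest medians.

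None of the 10 strongest flanks had in its bin the 5′ end of a protein-coding gene as GENCODE annotates whole genes, and the nearest lay up to 56.2 kb away. The strongest (3.01, chr9:13210001-13215000) closed a 1055 kb desert, and the nearest start, that of Jrkl, was 30.8 kb away. The next (2.81, chr7:118100001-118105000) overlapped an exon and ended the Xylt1 interval, 11.2 kb from Rps15a, a ribosomal protein gene. The third (2.76, chr16:23980001-23985000) opened the 845 kb interval of Lpp, a focal adhesion protein, 3.48 kb from Gm37419. Its bin held a CTCF consensus and a RefSeq promoter window of Bcl6, a transcriptional repressor. The starts nearest to the other 7 of the 10 strongest were those of Gm6793 (2.68), Selenow (2.65), Tfb1m (2.52), Spata19 (2.40), Lrrc8b (2.36), Xpnpep1 (2.34) and Ppt1 (2.33). The Spata19 flank began the pair of Opcml intervals, the Selenow flank ended an array of Obox homeobox genes, and the Lrrc8b flank ended a cluster of guanylate-binding protein genes (Gbp).

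Promoters and CTCF motifs, which the rule did not use, were less common at flanks than at other boundaries. A start site lay within 10 kb of 91 flanks (14.3%, 11.6 to 17.2%) and of 33.5% of the other autosomal boundaries (32.4 to 34.7%). Of all autosomal windows of the same 25 kb, 17.2% held a start site (n = 95843). A CTCF consensus lay within 10 kb of 80 flanks (12.5%, 10.1 to 15.4%), of 26.5% of the other boundaries (25.4 to 27.6%) and in 11.3% of all such windows, so the share at flanks was that of the windows within counting error. Those windows span all autosomal sequence, whereas the long intervals held 2.37 matches per Mb and the other autosomal intervals 5.47. Inside the long intervals, 42 matches pointed away from the flank and 20 towards it in the first 20 kb. Between 380 and 400 kb inside, the counts were 12 and 13. Neither feature was present at 479 flanks (75.1%), and 49.5% of the other boundaries had neither. Gene bodies followed the same order, with 484 flanks (75.9%) and 50.6% of the other boundaries between genes.

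Strong flanks held more of both features than weak ones. A CTCF consensus was within 10 kb of 53 of 273 strong flanks (19.4%, 14.9 to 24.6%) and of 27 of 365 weak ones (7.40%, 4.93 to 10.6%). A start site was within 10 kb of 53 strong flanks (19.4%) and of 38 weak ones (10.4%). The other boundaries had the same order. Their strong class had a consensus in 33.4% and a start site in 39.2%, and their weak class in 17.9% and 26.5%. Flanks with a consensus and no start site had a median strength of 0.709 (0.619 to 0.980, n = 68), and flanks with neither 0.373 (0.352 to 0.403, n = 479). For the other boundaries these medians were 0.700 and 0.441. Deserts were defined by holding no start site, so at least 1 side of each desert flank is empty, which partly fixes the next values. At the desert flanks the median distance to the nearest start was 453 kb, against 25.3 kb for the other boundaries. Of these 209 flanks 16 had a start site within 10 kb (7.66%). At the flanks of repeat-rich intervals 28 of 89 had one (31.5%), with a median distance of 19.2 kb.

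The strands of the motifs were unequal around the flanks. Inside the long intervals, within 50 kb of a flank, 92 of 137 consensus matches (67.2%, 58.6 to 74.9%) pointed away from the flank and so into the interval, as do the Vmn1r and March1 windows at right flanks printed above. In the 50 kb outside, 113 of 180 (62.8%, 55.3 to 69.9%) pointed away from the flank. Around the other autosomal intervals the shares were 66.8% and 66.9%. In the 46 repeat-rich intervals the inner matches were divided evenly (16 of 32, interval 31.9 to 68.1%). Intervals whose ends both had a consensus within 10 kb, pointing towards each other, numbered 4 of 336 (1.19%, 0.325 to 3.02%), against 2.36% of the other autosomal intervals. Pairs pointing away from each other numbered 0 of 336, against 213 of 6831 (3.12%). A consensus at either end was itself less common at flanks (12.5%) than at other boundaries (26.5%).

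Beyond the first 20 kb, start sites were more frequent outside the flanks than inside in the intervals that were not repeat-rich, and the fall lay within the interval. In the 290 intervals that were not repeat-rich there were 4.05 starts per Mb in the 20 kb outside the flanks (2.98 to 5.39) and 4.14 in the first 20 kb inside (3.05 to 5.49). Between 100 and 120 kb inside, the density was 1.90 (1.19 to 2.87), while at the same distance outside it was 4.74 (3.57 to 6.17). The outer 100 kb at each side of these intervals held 3.03 starts per Mb (2.60 to 3.52) and the rest 1.60 (1.44 to 1.77). In the repeat-rich intervals the outer parts held 14.3 per Mb (12.005 to 17.0) and the rest 11.3 (10.5 to 12.1). Intervals under 800 kb that lay next to a long one had a median length of 325 kb, against 255 kb for all autosomal intervals under 800 kb. These neighbours were counted once for each side of a long interval (n = 602), so one between 2 long intervals counts for both.

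**Figure D5:**
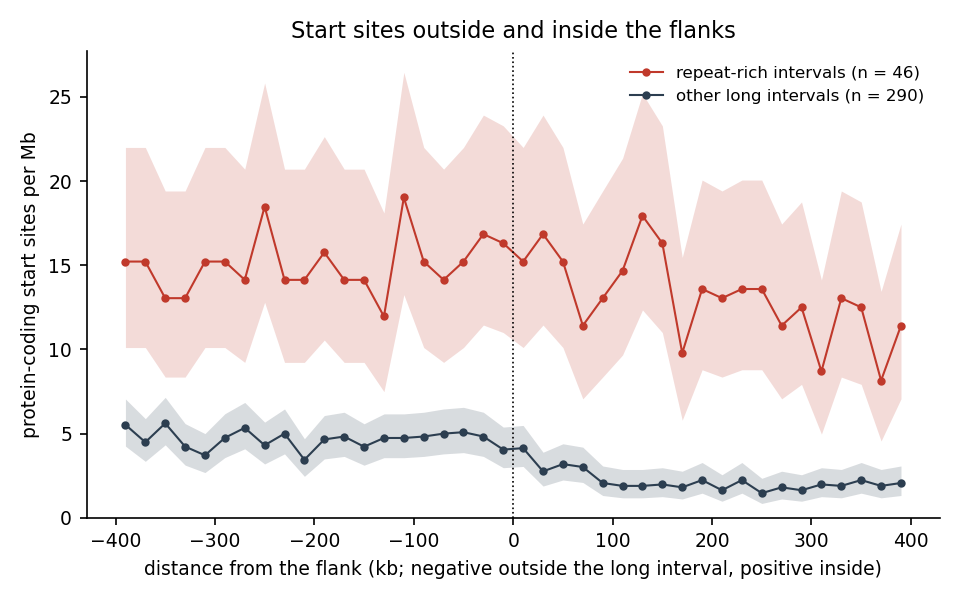
Protein-coding start sites per Mb in steps of 20 kb (vertical axis) by distance from the flank (kb, negative outside and positive inside the long interval), for repeat-rich and other long intervals, with exact 95% Poisson intervals shaded. In the 290 intervals that are not repeat-rich the density falls from 4.14 in the first inner step to 1.90 between 100 and 120 kb.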

How the data were processed

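The authors combined the contacts of both replicates into 1 matrix on GRCm38 and called boundaries on it, per the labels' design text. The deposited list gives 5 kb bins, each with the authors' class and score of strength. The caller with its version and window, any mask of unmappable bins and the scale of the score: none is given in the sources used here.

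Members and gene lists were chosen with earlier results of these data known. An interval runs from the end of 1 bin to the start of the next, and its length is the difference of the starts. Protein-coding genes came from GENCODE release M21, and sequence, promoters and functional elements from RefSeq GRCm38.p6. Words of 50 bases were sampled every 200 bases. CTCF matches (12728, with 20.9% touching soft-masked bases) were counted within 10 kb of a bin, and within 50 kb for strand. Lists (24 families by symbol and 6 marker lists) are described by counts. A rule fixed the named genes: the 10 longest intervals, the 12 genes of highest coverage, the 5 intervals with most start sites, the 10 strongest flanks, up to 4 members of each list, and Ldb1, Lhx2, Ebf1 and Omp. A few genes that the rule takes in are not reported here. Others are named as chosen after their values were seen. No significance test was run. The interval finder, counts and word counter were tested on simulated data. Python 3.11.15, numpy 2.4.6, pandas 2.3.3, scipy 1.17.1, numba 0.67.0 and matplotlib 3.10.9 were used.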

Additional observations from a re-analysis of the deposited data

How the results depend on the processing

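Of 69 recomputed values, 41 stayed close (inside the 95% interval of the value reported, or of like size for the number of intervals) and 28 moved further. With a limit of 1000 kb there were 159 intervals, with a median of 0.794 start sites per Mb and a start site near 10.3% of flanks. With 600 kb there were 744, with 1.19 per Mb, a consensus near 15.5% of flanks, 39.0% GC and 36.5% soft-masked sequence. With strong boundaries alone 749 intervals reached 800 kb, with 2.11 start sites per Mb, none in 5.74%, 1 gene over 50% of the interval in 8.54%, a median strength of 0.963, a start site near 24.7% and a consensus near 25.7% of flanks, 40.1% GC and 34.7% soft-masked sequence. Counting all annotated genes gave 8.07 starts per Mb and 0 empty intervals. A gene body over 80% of the interval was found in 4.17%. The weaker flank of each interval had a median of 0.297. Features in the bin itself gave 3.45% for start sites and 2.51% for the consensus, and a window of 25 kb gave 23.5% and 22.3%. Without repeat-rich intervals, a choice made after seeing the data, the medians were 0.849 starts per Mb, 38.1% GC and 36.8% soft-masked sequence. Each alternative changes the members or the definition counted, and the cause of these moves was not tested. All 10 values recomputed without the 9 intervals of over 10% assembly gaps stayed close, as did all 10 recomputed without chromosome 4, which holds the most long intervals of any autosome.

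No paired analysis was possible because both replicates belong to 1 group and were pooled into 1 list before calling, so no replicate was left out. Read depth and mappability per bin are unknown. Where repeated sequence or assembly gaps fill an interval, a missing boundary and missing reads cannot be told apart.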
